A study of Mus musculus with 24 samples.

Results

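Calcium-binding buffer and sensor genes were followed across 4 classes of neurons sorted from the cortex of adult mice. The 10 genes were taken by name from the 36528 genes listed in each library: Pvalb, Calb1 and Calb2, the 3 Necab genes, and the visinin-like genes Hpca, Hpcal1, Ncald and Vsnl1. All 10 were among the 14890 genes that passed the filter on low counts, so none was left out of a test. Bulk RNA-seq was available for 24 libraries, 6 for each subtype label (EXC, PV, SST, VIP), from male and female mice with no treatment named. Of the 6 libraries, 4 were male in EXC and in SST, 3 in PV and 2 in VIP. Living cells were gated by a green or a red reporter protein, depending on the mouse line. The lines, the promoters that drive the reporters, the ages in weeks and the number of animals behind a library are not stated in the labels. The p-values therefore cover the spread between libraries and no more, and part of that spread may be technical.

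Proteins with EF-hand loops bind calcium ions after a nerve cell has fired. Buffers such as parvalbumin, calbindin and calretinin take up calcium and shape the size and duration of its rise, and in the cortex they are widely used to tell apart classes of inhibitory interneurons. Sensors change shape when they bind calcium and pass the signal to other proteins: the visinin-like sensors carry a myristoyl tail that moves them to membranes, and the Necab proteins combine an EF-hand domain with a domain related to bacterial monooxygenases.

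The 4 visinin-like genes are close relatives, and this may bear on their counts, since only reads that align uniquely were counted. The first 60 coding bases show how they differ. They lie in coding exons on GRCm38 chromosome 4, 129118682 to 129118741 (Hpca, minus strand), chromosome 12, 17786171 to 17786230 (Hpcal1, plus strand), chromosome 15, 37397375 to 37397434 (Ncald, minus strand) and chromosome 12, 11386917 to 11386976 (Vsnl1, minus strand). Capitals mark the bases that differ from Hpca, of which Hpcal1 has 6, Ncald 15 and Vsnl1 18.
Hpca: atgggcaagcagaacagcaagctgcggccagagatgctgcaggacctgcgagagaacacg
Hpcal1: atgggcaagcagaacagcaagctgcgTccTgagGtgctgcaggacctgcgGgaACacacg
Ncald: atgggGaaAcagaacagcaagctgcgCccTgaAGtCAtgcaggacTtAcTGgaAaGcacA
Vsnl1: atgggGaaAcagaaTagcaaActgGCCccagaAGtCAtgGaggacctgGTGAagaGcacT

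Over the coding sequence from start to the base before the stop codon, Hpca and Hpcal1 were identical at 86.0% of 579 aligned positions, Hpca and Ncald at 78.6%, and Hpca and Vsnl1 at 70.4% of 585. The longest run shared by any pair of the 4 was 46 bases, in Hpca (chromosome 4, 129118391 to 129118436) and Ncald (chromosome 15, 37397084 to 37397129): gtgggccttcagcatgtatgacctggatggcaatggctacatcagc. The labels do not state the read length, and how many reads such runs remove from the unique counts was not tested. Identity was lower in the other families: 62.5% between Calb1 and Calb2, 25.6% between Pvalb and Calb1, and 50.3% to 56.4% among the Necab genes, with no shared run over 23 bases.

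The sorts carried the markers their labels call for. Slc17a7, the main vesicular glutamate transporter gene of the cortex, averaged 532 ± 214 normalised CPM (reads scaled to library size with TMM factors; SD, n = 6) in EXC and 7.43 to 42.5 in the other subtypes, while Gad2, a GABA synthesis gene, averaged 321 ± 155 in EXC and 2281 to 4474 elsewhere. Gad1, another GABA synthesis gene, averaged 104 ± 32.2 CPM in EXC and 838 to 1292 elsewhere. Sst averaged 1158 ± 261 CPM in SST and no more than 58.8 in another subtype, and Vip 1727 ± 51.4 CPM in VIP and no more than 1.58. For PV, 9 interneuron markers other than Pvalb summed to 3537 to 4755 CPM, and to no more than 1728 in a library of another subtype. The PV libraries also carried markers of ependymal cells, which summed to 37.8 to 145 CPM there and no more than 6.81 elsewhere. Total counts ran from 1548907 to 15978459, lowest in PV and highest in SST. At 10 CPM this amounts to 15.5 reads in the shallowest library, with a counting error of 25.4%, and to 160 reads in the deepest, with an error of 7.91%. Mitochondrially encoded genes took 14.4% to 52.9% of the reads in PV and 1.8% to 16.6% in the other subtypes. Some libraries stood apart. In EXC replicate 3 the 10 excitatory markers summed to 2033 CPM, against 4735 to 6629 in the other EXC libraries, and the 9 GABAergic markers to 1004, against 395 to 782. In SST the sum of 11 striatal projection neuron markers ran from 717 to 2493 CPM, with SST replicates 1 and 3 at 2312 and 2493 and no library of another subtype above 828. The pool identifiers in the labels, whose meaning is not stated there, follow the subtypes closely: POOL6188 holds all 6 PV and 5 EXC libraries, POOL7098 holds 5 SST and 2 VIP, POOL7099 holds 4 VIP and EXC replicate 3, and POOL7100 holds SST replicate 5. Only PV with EXC and SST with VIP could be compared within a pool at 2 or more libraries a side, and the PV and EXC libraries are linked to those of SST and VIP through EXC replicate 3 alone. A fit with the pool as a covariate, here called the pool fit, gives a value for all 6 pairs, but those of PV or EXC with SST or VIP rest on that library. Values of the pool fit that change a result are given beside it or in the last section.

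**Figure D1:**
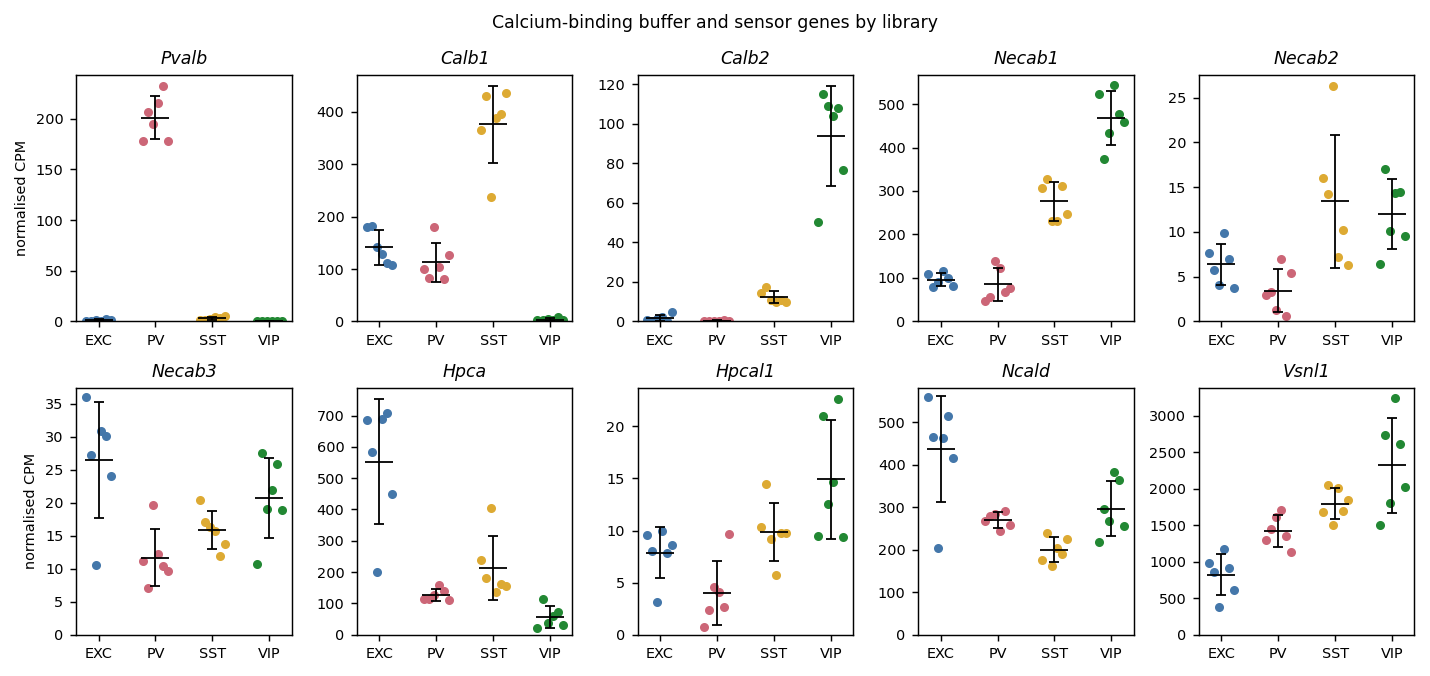
Normalised CPM of each of the 10 genes (vertical axis, from 0, a scale of its own in each panel) in the 24 libraries by subtype, replicates 1 to 6 from left to right. Black bars are the mean and SD of 6 libraries; Pvalb stood at 178 to 232 CPM in PV and no higher than 5.39 elsewhere, whereas Vsnl1 was at 382 CPM or more in every library.

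The 3 classic buffers divided the subtypes among themselves. Pvalb was the buffer of PV, Calb1 of SST and, at a lower level, of EXC and PV, and Calb2 of VIP. Differences below are log2 fold changes ± the standard error, with an adjusted p from edgeR's quasi-likelihood test, with Benjamini-Hochberg adjustment over all 14890 genes, and a difference passed at an adjusted p under 0.05.

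Pvalb encodes parvalbumin, a slow calcium buffer of fast-spiking interneurons, and lies on chromosome 15, 78191112 to 78206400. Its lowest, median and highest values in PV were 178, 201 and 232 CPM, against 1.24, 3.01 and 5.39 in SST, 0.542, 1.12 and 2.91 in EXC, and 0.12, 0.195 and 0.92 in VIP, where 14 reads were counted over the 6 libraries. The PV libraries lay far above all the others, while the ranges of SST and EXC overlapped, as did those of EXC and VIP. All 6 pairs of subtypes passed. The difference between PV and SST was 5.96 ± 0.35 (adjusted p = 2.01e-12), that between PV and EXC 7.20 ± 0.39 (7.24e-14), and the ratio of summed normalised reads in PV and VIP was 593, with a 95% counting interval of 353 to 1085. Within POOL6188 the difference between PV and EXC was 7.31 (adjusted p = 1.37e-11). Among the low levels, SST exceeded EXC by 1.25 ± 0.38 (adjusted p = 0.0102). That call did not hold when only SST and EXC entered the fit (1.16, adjusted p = 0.11). EXC exceeded VIP by 1.91 ± 0.55 (adjusted p = 0.00733). The pool fit kept PV over EXC, PV over VIP (9.08, adjusted p = 9.14e-05) and SST over VIP, but not PV minus SST (4.86, 0.127), SST minus EXC (2.38, 0.243) or VIP minus EXC (-1.84, 0.219). PV shares its name with this gene, so the height of Pvalb in PV is first of all a check of the sort.

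RefSeq's promoter table (GRCm38.p6) holds 2 start windows for Pvalb. The one at the start of the gene's annotated span, chromosome 15, 78206351 to 78206650 on the minus strand, runs from 250 bases before the start to 50 after it and is shown because Pvalb has the widest range of the 10 genes.
Pvalb: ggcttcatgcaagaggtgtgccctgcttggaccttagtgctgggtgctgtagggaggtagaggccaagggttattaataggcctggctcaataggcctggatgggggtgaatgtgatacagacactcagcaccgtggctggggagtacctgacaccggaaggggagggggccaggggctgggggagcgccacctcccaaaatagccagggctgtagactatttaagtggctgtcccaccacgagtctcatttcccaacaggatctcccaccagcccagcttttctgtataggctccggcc
Neither strand of this window holds TATAAA, which 13.6% of all 32851 windows in the table hold, CCAAT (37.4%), TGACGTCA (1.79%) or CANNTG (72.3%). These letters were searched as a description of the sequence only. Windows for Hpca, Hpcal1, Necab2, Necab3 and Vsnl1 were also in the table. The CCAAT box was found in those of Necab3 and in those of Vsnl1.

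Calb1 encodes calbindin, a fast buffer with high affinity, and lies on chromosome 4, 15881264 to 15906709. In SST it stood at 237, 392 and 436 CPM (lowest, median, highest), in EXC at 108, 135 and 183, in PV at 81.7, 102 and 181, and in VIP at 1.92, 2.81 and 8.09. Every SST library was above every library of the other subtypes, EXC and PV overlapped widely, and VIP lay far below. The lowest SST value came from replicate 3, and the other 5 were between 366 and 436. Of the libraries with a high striatal marker sum, replicate 3 (2493 CPM) was at 237 for Calb1 and replicate 1 (2312 CPM) at 366. The part of striatal cells in Calb1 was not tested. SST exceeded EXC by 1.41 ± 0.24 (adjusted p = 3.84e-05) and PV by 1.78 ± 0.25 (3.96e-06). Neither call held in the pool fit, where SST minus EXC was 1.19 (0.179) and PV minus SST -1.54 (0.126). PV, the lower of the middle pair, exceeded VIP by 4.94 ± 0.30 (6.55e-13). EXC and PV were neighbours whose difference did not pass (0.36, 95% interval -0.11 to 0.84, adjusted p = 0.228), nor did it within POOL6188, where PV minus EXC was -0.36 (adjusted p = 0.0962). SST exceeded VIP by 6.71 ± 0.32, and by 6.74 within POOL7098. The EXC sort also carried markers of dentate granule cells, a hippocampal cell type known for Calb1. All 10 listed markers had reads in every subtype. Their sum was 2011 to 2632 CPM in EXC, 1257 to 1361 in VIP, 498 to 752 in SST and 279 to 413 in PV. The sum is led by Prox1, which VIP interneurons also express, at 776 to 1040 CPM in EXC and 1077 to 1171 in VIP. C1ql2, a defining granule cell gene, was at 37.4 to 82.1 CPM in every EXC library and no higher than 0.419 in any other. Their part in the level of Calb1 in EXC was not tested. In bulk samples, fewer cells of a type and less RNA per cell cannot be told apart.

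Calb2 encodes calretinin, a buffer that binds calcium cooperatively, and lies on chromosome 8, 110142526 to 110168212. Its lowest, median and highest values were 50.1, 106 and 115 CPM in VIP, 9.97, 11 and 17.5 in SST, 0.34, 1.07 and 4.54 in EXC, and 0, 0.21 and 0.655 in PV. VIP and SST each stood clear of the subtypes below them, and EXC and PV overlapped. Over the 6 PV libraries 5 reads were counted and 3 libraries had none. VIP exceeded SST by 3.06 ± 0.37 (adjusted p = 3.01e-07; SST minus VIP was -2.59 within POOL7098), and SST exceeded EXC by 2.89 ± 0.38 (1.1e-06). All 6 pairs passed, also in the pool fit. The ratio of summed normalised reads in VIP and PV was 265, with a 95% counting interval of 113 to 815. EXC exceeded PV by 2.11 ± 0.75 (adjusted p = 0.024), with a ratio of summed normalised reads of 4.78 (counting interval 1.96 to 15.2). Without EXC replicate 6, which held 36 of the 73 EXC reads, or without PV replicate 4, the difference was 1.51 (adjusted p = 0.0734) and 1.77 (0.0752). EXC replicate 6 was also the library with the highest astrocyte marker sum, 4233 CPM against 500 to 1728 in the other EXC libraries, and whether this bears on its Calb2 reads was not tested.

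Necab1, an EF-hand protein gene on chromosome 4, 14952245 to 15149804, was the most abundant of its family in all 4 subtypes on the scale of the deposited RPKM, which divides by length. Its lowest, median and highest values were 373, 468 and 543 CPM in VIP, 230, 277 and 327 in SST, 80.0, 95.2 and 117 in EXC, and 47.1, 72.8 and 140 in PV. VIP, SST and the remaining libraries thus formed 3 separate levels, with EXC inside the range of PV. VIP exceeded SST by 0.77 ± 0.20 (adjusted p = 0.005; SST minus VIP was -0.77 within POOL7098, adjusted p = 0.00471). SST exceeded EXC by 1.52 ± 0.20 (1.05e-06). The pool fit lost no call of Necab1. EXC and PV did not pass (0.16, 95% interval -0.24 to 0.56, adjusted p = 0.554). The annotated gene Gm11837 overlaps 787 bases of Necab1 and had 4150 reads over the series, against 45634 for Necab1, and since the labels do not state the strand setting, reads from the shared stretch cannot be assigned with certainty.

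Necab2 is known as a binding partner of an adenosine receptor of the striatum and lies on chromosome 8, 119446719 to 119472640. It was low throughout. Its lowest, median and highest values were 6.31, 12.2 and 26.3 CPM in SST, 6.41, 12.2 and 17.0 in VIP, 3.78, 6.4 and 9.91 in EXC, and 0.655, 3.13 and 7.03 in PV, where single libraries held 3 to 19 reads. All 4 ranges overlapped, and the highest SST values were replicate 3 at 26.3 and replicates 1 and 2 at 16 and 14.2, the 3 libraries with the highest striatal marker sums. VIP exceeded PV by 2.07 ± 0.46 (adjusted p = 0.0006) and SST exceeded PV by 1.96 ± 0.44 (0.00141), and both passed in all 35 alternatives, with PV minus VIP at -3.38 and PV minus SST at -3.88 in the pool fit. SST minus VIP was -0.11 ± 0.40 (95% interval -0.90 to 0.68), although the mean of SST was the higher. Its sign turned in 6 alternatives, among them the pool fit (0.49, adjusted p = 0.515). EXC minus PV was 1.00 ± 0.45 (adjusted p = 0.0688). This difference passed in 9 of 36 alternatives, 4 of them the fits without EXC replicate 3 or 6 or PV replicate 4 or 6 (adjusted p = 0.022 to 0.0457). PV minus EXC also passed in the pool fit (-1.14, 0.0382), but not within POOL6188 (-1.10, 0.0974). SST exceeded EXC by 0.96 ± 0.38 (adjusted p = 0.0473). In the pool fit this difference was 2.74 (0.0322). The call was lost in 16 of 35 alternatives. Leaving out any 1 of EXC replicates 2, 3, 5 and 6, PV replicates 1, 2 and 6, SST replicates 1, 2 and 3 and VIP replicate 3 took it to an adjusted p of 0.0513 to 0.12, and without EXC replicate 3 and SST replicates 1 and 3 together it was 0.49 (adjusted p = 0.38). VIP exceeded EXC by 1.07 ± 0.40 (adjusted p = 0.0326). This call was lost in 5 alternatives: with only VIP and EXC in the fit (0.81, adjusted p = 0.0991), without a term for sex (0.90, 0.0647), without EXC replicate 3 and SST replicates 1 and 3 (0.89, 0.0605), without VIP replicate 2 (0.97, 0.055) and in the pool fit (2.24, 0.0536).

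Necab3, on chromosome 2, 154544391 to 154559406, encodes a binding partner of amyloid precursor adaptor proteins. It was highest in EXC, at 10.6, 28.7 and 36.0 CPM, followed by VIP at 10.7, 20.5 and 27.6, SST at 12, 16 and 20.5, and PV at 7.03, 10.8 and 19.7. All ranges overlapped, and the lowest EXC value was that of replicate 3. EXC exceeded PV by 1.20 ± 0.27 (adjusted p = 0.000758; PV minus EXC was -1.35 within POOL6188, adjusted p = 0.000249). VIP exceeded PV by 0.77 ± 0.27 (adjusted p = 0.0214) and EXC exceeded SST by 0.72 ± 0.25 (0.0249). Those last differences did not hold everywhere: leaving out any of PV replicates 2, 5 and 6 and VIP replicate 5 took the first to adjusted p of 0.0506 to 0.0665, and leaving out any of EXC replicates 1, 4 and 5 and SST replicates 4, 5 and 6 took the second to 0.0571 to 0.0805. With no filter the second was at 0.0503. The pool fit turned SST minus EXC to 1.26 (0.0709), VIP minus EXC to 1.07 (0.0823) and SST minus VIP to 0.18 (0.68). It moved PV minus VIP to -2.41 (0.00193) and PV minus SST to -2.60 (0.00291). None of the neighbours in the order EXC, VIP, SST, PV differed beyond the test: the 95% intervals were -0.08 to 0.94, -0.22 to 0.81 and -0.06 to 1.02. Without EXC replicate 3 and SST replicates 1 and 3, VIP minus EXC passed (-0.61, adjusted p = 0.0316). The protein-coding genes E2f1, Actl10 and 1700003F12Rik overlap Necab3 in the annotation, with 53 to 353 reads each against 3396.

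The visinin-like sensors split in another way. By their mean CPM, Hpca and Ncald were highest in EXC, and Vsnl1 and Hpcal1 were highest in VIP. For Hpca and Ncald the order of EXC and SST turned in the pool fit.

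Hpca encodes hippocalcin, a sensor that helps set the slow afterhyperpolarisation of hippocampal neurons, and lies on chromosome 4, 129111570 to 129125919. Its lowest, median and highest values were 199, 635 and 707 CPM in EXC, 136, 170 and 406 in SST, 111, 121 and 159 in PV, and 23.1, 49.1 and 115 in VIP. EXC stood clear of PV and VIP, and its only library inside the SST range was replicate 3 at 199. EXC exceeded SST by 1.38 ± 0.33 (adjusted p = 0.00163), PV by 2.11 ± 0.34 (1.3e-05) and VIP by 3.29 ± 0.36 (3.24e-08), and within POOL6188 PV minus EXC was -2.27 (1.43e-09). SST minus PV did not pass (0.73 ± 0.34, 95% interval 0.07 to 1.39, adjusted p = 0.112). It passed in 3 alternatives, with only SST and PV in the fit (0.62, adjusted p = 0.0176), with no filter (0.81, 0.00355) and in the pool fit (PV minus SST -3.64, 0.00103). PV exceeded VIP by 1.18 ± 0.34 (adjusted p = 0.00579). SST exceeded VIP by 1.91 ± 0.36 (0.000174; 2.76 within POOL7098). The only VIP libraries of that pool are replicates 1 and 3, at 23.1 and 39.1 CPM. It also holds SST replicates 1 and 3, at 238 and 406 CPM. The pool fit turned SST minus EXC to 1.37 (adjusted p = 0.105) and PV minus VIP to -0.86 (0.355), and took VIP minus EXC to -1.41 (0.0299).

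The 2 highest SST libraries for Hpca, replicate 3 at 406 CPM and replicate 1 at 238, were again those with the highest striatal marker sums, and the other 4 stood at 136 to 180. Striatal projection neurons are known to express Hpca. All 11 striatal markers had reads in every subtype. Adora2a marks striatal neurons of the indirect pathway. It was at 55.0 and 44.4 CPM in SST replicates 1 and 3, 4.15 to 23.6 in the other SST libraries and no higher than 2.34 elsewhere. Ppp1r1b was at 232 and 308 CPM in replicates 1 and 3 and at 38.3 to 142 in the others. Tac1 and Penk, also on the list, are expressed by cortical interneurons too. Of the 10 genes, Hpca and Necab2 had their highest SST value in replicate 3, and Calb1, Ncald and Vsnl1 their lowest. Over all 14890 genes replicate 3 was the highest SST library for 27.5% and the lowest for 24.4%. The part of striatal cells in these values was not tested.

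**Figure D2:**
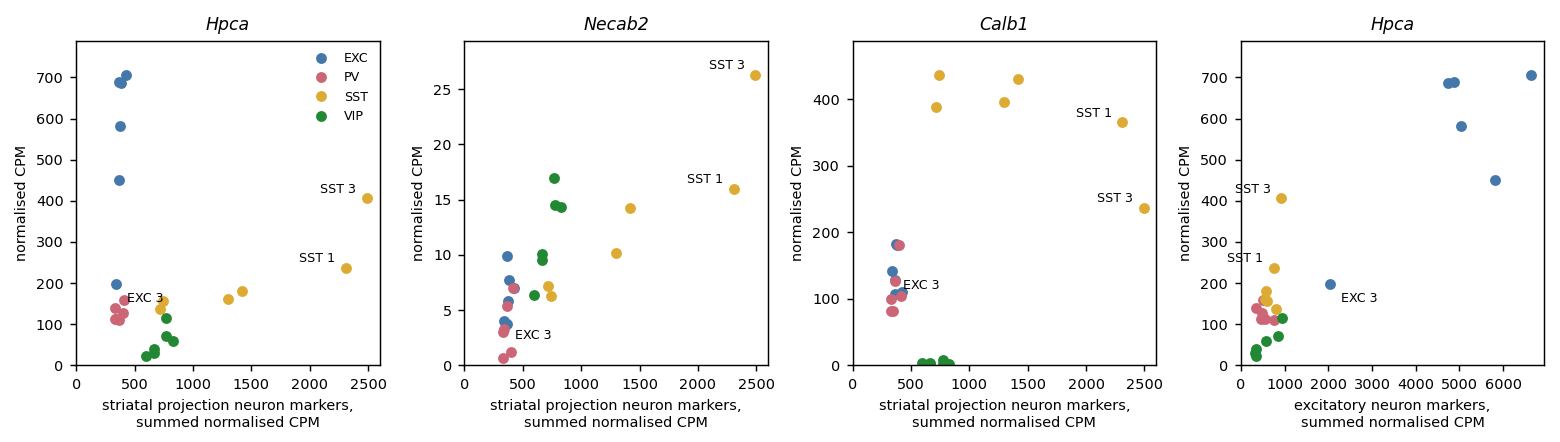
Normalised CPM of Hpca, Necab2 and Calb1 (vertical axes) against the summed CPM of 11 striatal projection neuron markers, and of Hpca against 10 excitatory markers (right), with 1 point per library. SST replicates 1 and 3 are the points farthest right in the first 3 panels, where Hpca reached 238 and 406 CPM, and EXC replicate 3 lies to the left of the other EXC libraries in the last panel.

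Hpcal1, on chromosome 12, 17690750 to 17791944, encodes a close relative of hippocalcin and was the scarcest of the 4 sensors. In VIP it stood at 9.34, 13.6 and 22.6 CPM, in SST at 5.69, 9.79 and 14.5, in EXC at 3.17, 8.29 and 10 and in PV at 0.747, 3.34 and 9.66, where 1 to 12 reads were counted per library. All ranges overlapped. VIP exceeded PV by 2.0 ± 0.39 (adjusted p = 0.000151) and SST exceeded PV by 1.42 ± 0.39 (0.00754). VIP exceeded EXC by 0.90 ± 0.34 (0.0376) and EXC exceeded PV by 1.10 ± 0.39 (0.0237), but neither held throughout: the first did not pass without EXC replicate 2, VIP replicate 2 or VIP replicate 5 (adjusted p = 0.056, 0.0595 and 0.148), and the second did not pass without EXC replicate 1 or PV replicate 1, 2 or 5 (0.0546 to 0.0665). Both were also lost with only the pair compared in the fit (0.0683 and 0.0555), and the first without EXC replicate 3 and SST replicates 1 and 3 (0.0749). The neighbours VIP and SST (0.58, 95% interval -0.10 to 1.25) and SST and EXC (0.32, -0.33 to 0.98) did not differ beyond the test. In single alternatives they passed: SST minus VIP was -0.71 (adjusted p = 0.0478) with only those subtypes in the fit, and SST minus EXC 2.27 (0.0385) in the pool fit, which also moved VIP minus EXC to 2.45 (0.0166), PV minus SST to -3.51 (0.00843) and PV minus VIP to -3.69 (0.00311).

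Ncald encodes neurocalcin delta, a sensor linked to clathrin and to membrane guanylate cyclases, and lies on chromosome 15, 37366175 to 37792519. It was at 204, 464 and 559 CPM in EXC, 218, 283 and 382 in VIP, 243, 273 and 291 in PV and 161, 196 and 240 in SST. EXC replicate 3 at 204 was the only EXC library that reached into the ranges of the other subtypes, and the 6 PV libraries were all above the 6 SST libraries. EXC exceeded SST by 1.13 ± 0.18 (adjusted p = 1.19e-05), PV by 0.71 ± 0.18 (0.00168; PV minus EXC was -0.84 within POOL6188, 4.54e-06) and VIP by 0.60 ± 0.18 (0.00853). This last call did not pass without EXC replicate 1 (0.48, adjusted p = 0.0529) or VIP replicate 1 (0.48, 0.052), nor with only EXC and VIP in the fit (0.63, 0.0513). The pool fit turned the direction of SST minus EXC (0.35, adjusted p = 0.406) and VIP minus EXC (0.61, 0.0881). VIP minus PV was 0.11 (95% interval -0.23 to 0.46), and PV minus VIP passed in the pool fit at -1.45 (0.00115). PV minus SST was 0.41 ± 0.18 (adjusted p = 0.086), although the libraries did not overlap, and it passed in 7 alternatives in the same direction, DESeq2 among them (0.43, 0.035) and the fit without EXC replicate 3 (0.40, 0.0242). In the pool fit it passed in the opposite direction (-1.20, adjusted p = 0.0138). VIP exceeded SST by 0.53 ± 0.18 (0.0265). That call did not hold within POOL7098, where SST minus VIP was -0.16 (0.542), in the pool fit (-0.26, 0.287) or with no filter (-0.45, 0.083), nor without SST replicate 3 or 4 or VIP replicate 4 or 5 (0.054 to 0.118).

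Vsnl1 encodes the visinin-like protein from which the family takes its name and lies on chromosome 12, 11325257 to 11436578. It was the most abundant of the 10 genes per length in every subtype, with a mean deposited RPKM of 707 ± 182 in VIP, 525 ± 63.0 in SST, 421 ± 61.3 in PV and 244 ± 77.2 in EXC. On the CPM scale its lowest, median and highest values were 1498, 2320 and 3239 in VIP, 1497, 1770 and 2052 in SST, 1127, 1399 and 1712 in PV, and 382, 884 and 1177 in EXC. The ranges formed an overlapping ladder from EXC at the bottom to VIP at the top, in which EXC overlapped with PV alone. VIP exceeded EXC by 1.46 ± 0.21 (adjusted p = 3.96e-06), SST exceeded EXC by 1.13 ± 0.21 (9.73e-05) and PV exceeded EXC by 0.78 ± 0.21 (0.00317; 0.66 within POOL6188, 0.002). VIP also exceeded PV, by 0.68 ± 0.21 (0.00958). The neighbours VIP and SST (0.32, 95% interval -0.09 to 0.74) and SST and PV (0.35, -0.05 to 0.76) did not pass. PV minus SST passed with only those subtypes in the fit (-0.33, adjusted p = 0.0466) and in the pool fit (-2.27, 0.000516). The pool fit also moved SST minus EXC to 2.91 (1.56e-05), VIP minus EXC to 2.77 (2.72e-06) and PV minus VIP to -2.13 (0.000201), each in the direction given above. It turned SST minus VIP to 0.14 (0.654).

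**Figure D3:**
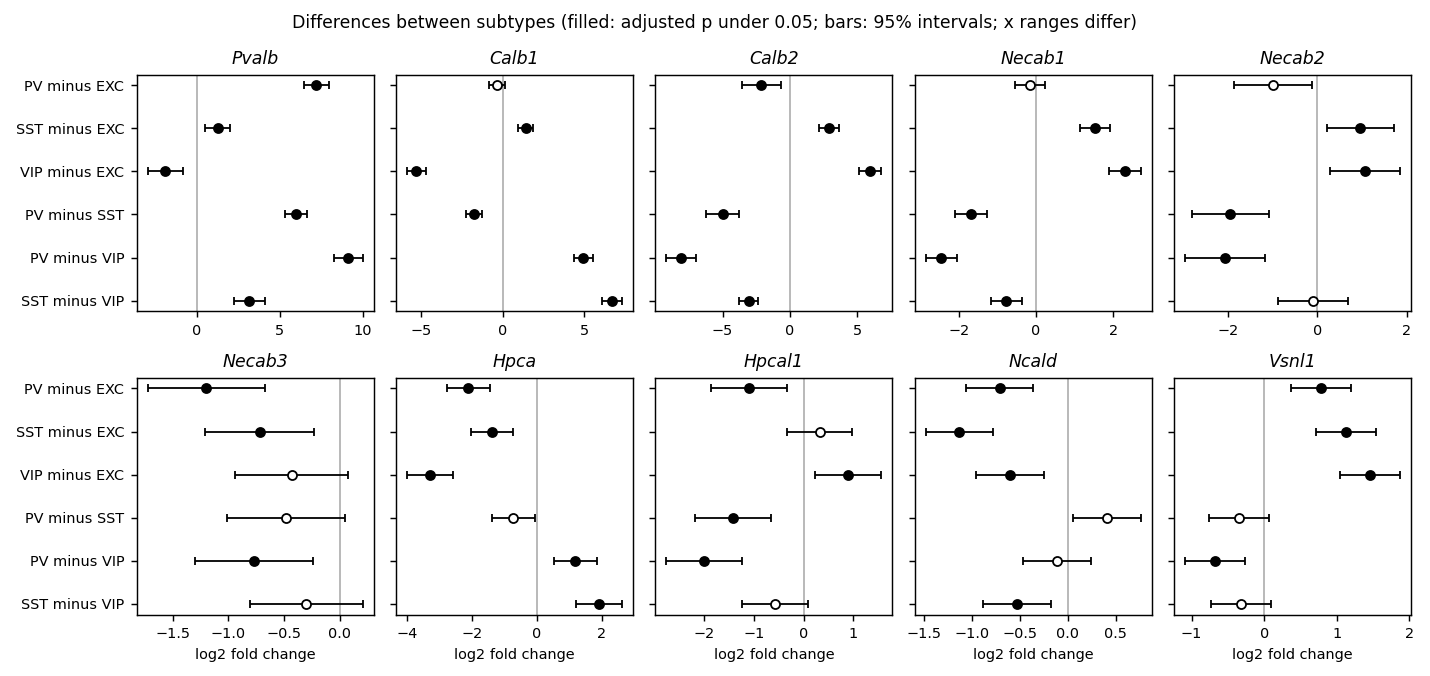
Log2 fold change of each gene (horizontal axis, a scale of its own in each panel) for the 6 pairs of subtypes, with bars of the 95% interval; filled points passed at an adjusted p under 0.05. Filled points number 46 of 60, and all 6 are filled for Pvalb and for Calb2.

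Several of these genes were low or high in the same libraries of a subtype. In EXC replicate 3, the library with few excitatory markers, Necab3, Hpca, Hpcal1, Ncald and Vsnl1 each had their lowest EXC value, 5 of the 10 genes, as did 32.7% of all genes tested. In VIP, replicates 2, 4 and 5 had 14.2% to 16.6% mitochondrial reads, against 1.8% to 5.83% in replicates 1, 3 and 6. Excitatory marker sums were 579 to 936 CPM in the former and 334 to 341 in the latter. These sums are led by Camk2a, at 897, 547 and 745 CPM in the former and 332, 328 and 326 in the latter. Slc17a7 was at 8.22, 7.79 and 24.1 CPM in the former and 1.75, 2.0 and 0.719 in the latter. Oligodendrocyte marker sums were 282 to 741 CPM in the former and 59.7 to 119 in the latter. Pvalb, Necab2, Necab3, Hpca, Hpcal1, Ncald and Vsnl1 were higher in each of the former than in each of the latter, 7 of the 10 genes against 18.4% of all genes. Hpca, for example, was at 115, 59.1 and 72.5 CPM in replicates 2, 4 and 5 and at 23.1, 39.1 and 30.1 in replicates 1, 3 and 6. Vsnl1 was at 2731, 3239 and 2615 CPM in the former and at 1498, 1805 and 2025 in the latter. VIP replicates 1 and 3 are in POOL7098, and VIP replicates 2, 4, 5 and 6 are in POOL7099. Whether mitochondrial content, excitatory or oligodendrocyte RNA or the pool bears on these values was not tested.

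Over the 6 pairs, 46 of the 60 differences of the 10 genes passed. In PV against EXC 7 genes passed, 2 higher and 5 lower in PV, where 45.9% of all genes passed (20.3% higher and 25.6% lower). In SST against EXC 9 passed, 6 higher and 3 lower (38.4% of all genes, 17.1% higher and 21.3% lower). In VIP against EXC 9 passed, 5 higher and 4 lower (39.1%, 18.4% higher and 20.7% lower). In PV against SST 6 passed, 1 higher and 5 lower in PV (26.3%, 11.4% higher and 14.9% lower). In PV against VIP 9 passed, 3 higher and 6 lower (48.6%, 21.9% higher and 26.7% lower). In SST against VIP 6 passed, 3 in each direction (31.3%, 14.6% higher and 16.7% lower). All 10 genes passed in at least 3 pairs, as did 49.5% of all genes, 9 in at least 4 pairs (26.4%), 5 in at least 5 (12.1%) and Pvalb and Calb2 in all 6 (1.86%). Libraries did not overlap for 2 genes in PV against EXC (23.2% of all genes), 4 in SST against EXC (18.3%), 5 in VIP against EXC (17.4%), 5 in PV against SST (20.8%), 4 in PV against VIP (27.7%) and 5 in SST against VIP (21%). The pairs share libraries, so these counts are not independent.

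Per length, the leading buffer differed between subtypes. Of the summed deposited RPKM of Pvalb, Calb1 and Calb2 in a library, Calb1 held 95.1% ± 3.36 in EXC and 91.9% ± 1.42 in SST (SD, n = 6). Pvalb held 81.5% ± 5.52 in PV, where Calb1 held 18.4%, and Calb2 held 97.5% ± 1.31 in VIP. On plain counts, which are not divided by length, Pvalb held 64.5% and Calb1 35.4% in PV. The leading gene was the same in all 6 libraries of a subtype, with its lowest share at 72.7% in PV. The sum itself was 125 ± 8.5 RPKM in PV, 82.3 ± 14.8 in SST, 40.5 ± 9.95 in VIP and 30.9 ± 6.11 in EXC, and every PV and SST library, at 53.8 RPKM or more, lay above every EXC and VIP library, at 49 or less.

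In the Necab family Necab1 held 86.4% ± 4.68 of the summed RPKM in VIP, 80.8% ± 5.73 in SST, 71.1% ± 5.59 in PV and 58.4% ± 7.94 in EXC. Necab3 held 32.5% ± 7.51 in EXC, or 20.3% on plain counts, where Necab1 held 74.9%, and Necab2 held no more than 19.4% in any library, reached in SST. Among the 4 visinin-like sensors Vsnl1 held 93.0% ± 0.792 in VIP, 87.2% ± 4.39 in SST, 87.0% ± 1.38 in PV and 57.0% ± 3.4 in EXC. Hpca held 30.5% ± 2.8 in EXC (29.9% on plain counts), with 25.8% in the lowest library, against 8.58% ± 4.59 in SST, 6.33% ± 0.633 in PV and 1.75% ± 0.763 in VIP. The highest Hpca share outside EXC was 17.3%, in SST. Ncald rose from 11.9% of the RPKM sum to 24.5% of the plain counts in EXC, and Vsnl1 went from 57.0% to 45.2%.

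**Figure D4:**
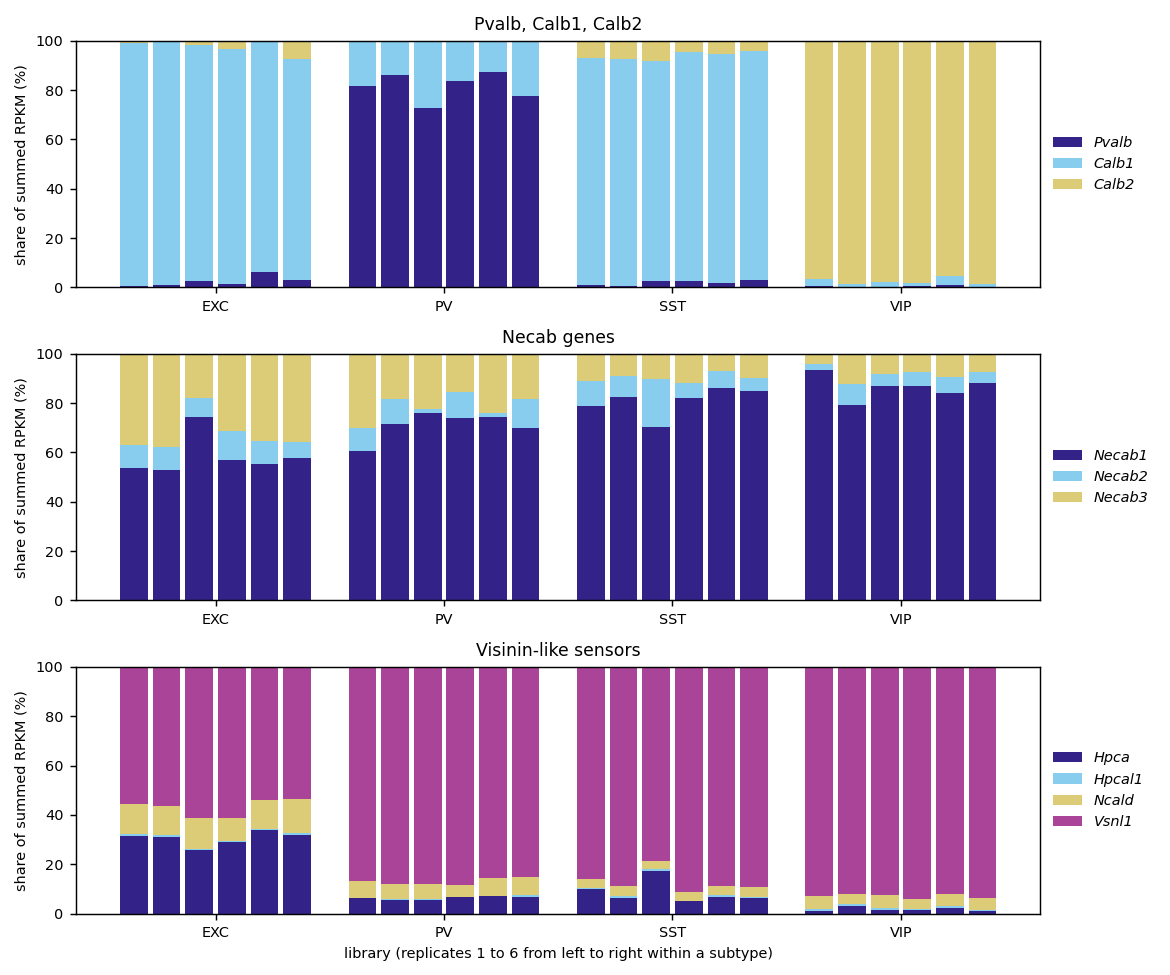
Share of each gene in the summed deposited RPKM of its family (vertical axis, percent) in the 24 libraries, replicates 1 to 6 from left to right within a subtype. Calb1 leads the top panel in EXC and SST, Pvalb in PV and Calb2 in VIP, and Hpca takes 25.8% to 33.9% of the visinin-like sum in EXC and no more than 17.3% elsewhere.

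Set side by side on the RPKM scale, the 10 genes were ranked within each subtype by their mean, and the order of neighbours was read only where their means lay further apart than the larger of their SDs. In EXC the mean RPKM fell in the order Vsnl1 (244), Hpca (133), Ncald (49.9), Calb1 (29.5) and Necab1 (11.4), with the other 5 at 6.48 or less. PV had Vsnl1 (421) and then Pvalb (102), followed by Ncald (30.6), Hpca (30.5) and Calb1 (23.1 ± 7.74), whose order cannot be read. In SST Vsnl1 (525) was followed by Calb1 (75.7), then by Hpca (50.4 ± 23.9) and Necab1 (31.8), which cannot be ordered. Ncald (22.3) lay below Necab1. In VIP Vsnl1 (707) was followed by Necab1 (56.7), then by Calb2 (39.5 ± 9.76) and Ncald (34.8 ± 6.51), which cannot be ordered, and then by Hpca (13.9).

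Sex was balanced unevenly over the subtypes and had its own term in the fit. None of the 10 genes passed for sex in edgeR, none had an unadjusted p under 0.05, and 6 of the 14890 genes passed (0.0403%, or 2.63% at an unadjusted p under 0.05). The estimates of female minus male lay between -0.48 ± 0.31 for Necab2 and 0.22 ± 0.19 for Necab3. The test of whether subtype differences depend on sex called no gene of the 14890 in edgeR (0.0%), and DESeq2's likelihood ratio test called 1 gene, none of these 10. In edgeR 319 genes (2.14%) had an unadjusted p under 0.05, among them Pvalb and Calb1, 2 of the 10.

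Other genes of calcium binding and transport were counted over 6 lists made by function. Of 9 further genes of the neuronal calcium sensor family, 6 were tested: 3 were higher and 3 lower in PV than in EXC, 1 higher and 4 lower in SST than in EXC, and the same numbers held for VIP. The median log2 difference of these 6 was 0.04, -0.75 and -1.45, against -0.12, -0.06 and 0.01 over all genes. The counts of this list and of those below are small and were read against no test. Over all genes 20.3% were higher and 25.6% lower in PV than in EXC, 17.1% and 21.3% in SST, and 18.4% and 20.7% in VIP. In the pool fit the counts of this list were 3 higher and 1 lower in SST and 1 and 1 in VIP. Kcnip1, an auxiliary subunit gene of potassium channels, averaged 159 ± 29.7 CPM in VIP, 102 ± 11.7 in PV, 76.6 ± 13 in SST and 5.37 ± 4.75 in EXC (VIP minus EXC 4.84 ± 0.37, adjusted p = 3.28e-11). Its paralog Kcnip3, also known as a transcriptional repressor, had the opposite top, with 116 ± 41.6 CPM in EXC and 12.1 ± 4.81 in PV (EXC minus PV 3.21 ± 0.30, 1.72e-09). Kcnip2 was highest in PV, at 134 ± 22.4 CPM, and lowest in VIP, at 14.8 ± 6.31.

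Of 10 calmodulin and calmodulin-like genes 5 were tested, with 1 higher and 2 lower in PV than in EXC, 0 and 3 in SST, and 1 and 2 in VIP. The pool fit gave 1 and 0 in SST and 1 and 0 in VIP. Calm3, a calmodulin gene, averaged 751 ± 48.1 CPM in PV and 263 ± 109 in VIP (PV minus VIP 1.56 ± 0.23, adjusted p = 5.43e-06), a difference that was -0.07 (0.935) in the pool fit. Caln1, which encodes a calmodulin-like protein of the Golgi, averaged 337 ± 18.6 CPM in VIP and 94.0 ± 19.2 in PV (VIP minus PV 1.89 ± 0.24, 5.12e-07). Cabp1, which encodes caldendrin, averaged 18.5 ± 5.19 CPM in PV and 6.45 ± 1.53 in SST (PV minus SST 1.58, adjusted p = 3.36e-05, and 1.27, 0.133, in the pool fit).

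Of 20 other EF-hand and S100 genes 13 were tested, with 3 higher and 4 lower in PV than in EXC, 1 and 2 in SST, and 0 and 4 in VIP. In the pool fit the counts were 1 and 4, 2 and 2, and 2 and 2. S100b, which is known from astrocytes and some oligodendrocytes, averaged 10.2 ± 12.3 CPM in EXC and 10.6 ± 4.58 in PV against 0.65 ± 0.472 in SST (PV minus SST 4.09, adjusted p = 0.0015, and -4.52, 0.228, in the pool fit). Astrocyte markers summed to 500 to 4233 CPM in EXC, 235 to 754 in PV and 236 to 342 in SST. In VIP they summed to 1122 to 1642 CPM, while S100b averaged 2.3 ± 1.88 CPM there. The sum is led by Slc1a2, at 486 to 3792 CPM in EXC, 139 to 533 in PV and 1080 to 1508 in VIP. Markers of ependymal cells, which also express S100b, summed to 37.8 to 145 CPM in PV and no more than 6.81 elsewhere. The part of either cell type in S100b was not tested. Tesc, the tescalcin gene, averaged 10.9 ± 4.87 CPM in EXC and 0.886 ± 0.77 in VIP (EXC minus VIP 3.57 ± 0.54, adjusted p = 5.05e-06). In the pool fit VIP minus EXC was -1.35 for Tesc and did not pass (adjusted p = 0.28). S100a6 averaged 12.9 ± 7.37 CPM in SST and 5.61 ± 3.34 in EXC, a difference that did not pass (1.25 ± 0.85, adjusted p = 0.263). It passed with no filter (1.31, 0.0239) and, in the opposite direction, in the pool fit (-3.60, 0.00535).

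All 6 genes of proteins that hold or release calmodulin, or of relatives of such proteins, were tested. Of these, 5 were lower and 1 higher in PV than in EXC, with a median log2 difference of -2.85. Over all genes 25.6% were lower and 20.3% higher. SST against EXC had 3 higher and 1 lower (0.50), and VIP against EXC 2 and 3 (-0.44). The pool fit left PV as it was and gave 2 and 0 in SST and 1 and 1 in VIP. Nrgn, the neurogranin gene of excitatory spines, averaged 312 ± 146 CPM in EXC and 4.68 ± 6.51 in VIP (EXC minus VIP 6.10 ± 0.58, adjusted p = 2.48e-09; VIP minus EXC -3.09, 0.000593, in the pool fit). Pcp4l1 averaged 341 ± 63.9 CPM in PV and 21.5 ± 11.7 in EXC (PV minus EXC 4.04 ± 0.29, 9.88e-12). Marcks, a membrane protein gene whose product binds calmodulin, averaged 590 ± 179 CPM in VIP and 33.6 ± 19.7 in PV.

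Of 12 genes of pump and exchanger families whose members mostly extrude calcium across the plasma membrane, 11 were tested. They are called extrusion genes below. In PV 2 were higher and 6 lower than in EXC, 2 and 5 in SST, and 2 and 7 in VIP. Over all genes 20.3% were higher and 25.6% lower in PV, 17.1% and 21.3% in SST, and 18.4% and 20.7% in VIP. The list medians were -0.78, -0.47 and -1.12. In the pool fit 2 were higher and 7 lower in PV, 2 and 2 in SST, and 2 and 4 in VIP. The higher count in SST also ran from 1 without SST replicate 4 to 4 without EXC replicate 5. Slc24a4, a potassium-dependent exchanger gene, averaged 59.7 ± 9.15 CPM in EXC and 0.412 ± 0.254 in VIP, with 16 reads over the VIP libraries. Atp2b4, a calcium pump gene, averaged 371 ± 114 CPM in EXC and 268 ± 19.7 in SST, but 18.8 ± 10.3 in PV and 5.82 ± 1.7 in VIP (EXC minus VIP 6.0 ± 0.33, adjusted p = 6.15e-14). Slc8a2, a sodium-calcium exchanger gene, averaged 285 ± 91.5 CPM in EXC and 7.59 ± 2.29 in PV (EXC minus PV 5.24 ± 0.33, 8.64e-13).

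Of 11 genes of calcium-binding proteins of the secretory pathway 9 were tested, with 4 higher and 1 lower in PV than in EXC, 4 and 0 in SST, and 3 and 2 in VIP, with medians of 0.58, 0.39 and 0.25. Against the shares over all genes just given, these counts are too few to set the list apart, and the difference from the extrusion genes was not tested. The lower count rose to 2 in PV and to 1 or 2 in SST in most fits that left out 1 library, and in VIP it was 0 in the pool fit and without VIP replicate 1. Rcn1, a reticulocalbin gene of the endoplasmic reticulum, averaged 24.8 ± 7.4 CPM in PV and 8.72 ± 3.72 in EXC (PV minus EXC 1.52 ± 0.26, adjusted p = 2.66e-05). Rcn2 averaged 178 ± 39.5 CPM in SST and 76.0 ± 20.4 in EXC (SST minus EXC 1.23 ± 0.19, 1.16e-05). Nucb2, a nucleobindin gene, averaged 37.1 ± 7.99 CPM in SST and 20.3 ± 2.99 in PV (SST minus PV 0.82 ± 0.17, 0.000507), and in the pool fit PV minus SST was -1.19 (0.0559) for Nucb2. Between PV, SST and VIP the 6 lists together were mixed in direction. Of the extrusion genes, 6 were higher and 3 lower in PV than in VIP (2 and 2 in the pool fit). Over all genes 21.9% were higher and 26.7% lower there. In SST against VIP 7 were higher and 1 lower (6 and 2 in the pool fit), beside 14.6% and 16.7% of all genes. These counts were not tested.

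For each of the 10 genes the 2 genes with the most similar profile were sought by Pearson's r of log2 CPM over the 24 libraries, among 9238 candidates. The libraries fall into 4 subtypes, so r mainly reflects the 4 means and is given as a description. The names depend on the measure: with Spearman's correlation neither gene was the same for Pvalb, Calb1, Calb2, Necab1 and Hpcal1, 1 of the 2 was for Necab2, Necab3, Hpca and Vsnl1, and both were for Ncald alone. Man1c1, a mannosidase gene, and Nefh, a neurofilament gene, were nearest to Pvalb (r = 0.95 each), with Nefh at 200 ± 38.0 CPM in PV and no more than 23.9 on average elsewhere. Unc5d and Adgrl2 were nearest to Calb1 (0.95 each), and Unc5d averaged 217 ± 51.3 CPM in SST and 10 ± 0.93 in VIP. Glra2, a glycine receptor subunit gene, and Tac2, a tachykinin gene, were nearest to Calb2 (0.95 each), and Tac2 averaged 450 ± 137 CPM in VIP with 1 read over the PV libraries.

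Slc35f1 and Cd200 were nearest to Necab1 (r = 0.94 each). Penk and Adra2a were nearest to Necab2 (0.82 each), where Penk, the proenkephalin gene, averaged 512 ± 88.7 CPM in VIP and 384 ± 218 in SST and is one of the striatal markers. Lrtm2 and Gpr39 were nearest to Necab3 (0.85 each), Rgl1 and Phyhip to Hpca (0.97 each), and Atp1b2 and Adra2a to Hpcal1 (0.87 each). Thy1 and Susd4 were nearest to Ncald (0.90 and 0.87), with Thy1 at 4779 ± 2323 CPM in EXC and 457 ± 79.9 in SST (SST minus EXC -3.37, adjusted p = 3.17e-08, and 0.32, 0.638, in the pool fit). Rit2 and Ppp1r26 were nearest to Vsnl1 (0.92 and 0.91). Among the 10 genes themselves Calb2 and Necab1 were the most alike pair (0.92), and Pvalb and Calb2 the most opposed (-0.74).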

How the data were processed

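RNA of sorted neurons was sequenced in bulk in 24 libraries. Per the submitters' processing notes, reads were aligned with GSNAP to GRCm38. Per the file headers, the deposited count holds the reads of a gene model that aligned uniquely, and the deposited RPKM is adjusted by size factors. The counting program, annotation release, strand setting and read length are not stated in the labels or headers. Of 36528 genes, 31126 had a symbol from RefSeq or GENCODE M21. Total counts ran from 1548907 to 15978459 per library, and counting errors and intervals cover counting error only. The counts of 60 pairs of libraries of a subtype differed by at least 5.1 chi-square units per degree of freedom, so none was a copy.

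Genes were filtered with filterByExpr by subtype, scaled by TMM and fitted with edgeR 4.0.16 (R 4.3.3) with terms for subtype and sex over all 24 libraries. Quasi-likelihood F tests covered the 6 pairs, sex and subtype by sex, with Benjamini-Hochberg adjustment over 14890 genes. Standard errors are the log2 fold change divided by the square root of F, and 95% intervals span 1.96 of them on each side. The script was tested on simulated data. Correlations used log2 CPM with a prior count of 2. RPKM values served mainly for comparisons between genes. Their shares, sums and means were also set side by side over subtypes, as a description without a test. The alternatives were DESeq2 1.42.0, other scaling factors and filters, no mitochondrial genes, no sex term, the pool as a covariate or a single pool, only the pair compared, and libraries left out. Family shares were also computed from plain counts, and the genes of similar profile with Spearman's correlation.

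The members, the lists and the naming rule were chosen with earlier results of these data known. The rule names the 10 genes, the 3 genes of each of 6 lists with the widest range of mean log2 CPM (at least 10 CPM in the highest subtype), the 2 genes most correlated with each of the 10, and Slc17a7, Gad1, Gad2, Sst and Vip. Marker genes beside a result, the longest shared run and the Pvalb window were chosen after their values were seen. Coding sequences come from GENCODE M21 and promoter windows from RefSeq (GRCm38.p6), which matched 6 of the 10. Protein sequences were not used here.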

Additional observations from a re-analysis of the deposited data

Results flagged for a closer look

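Of 40 groups (10 genes in 4 subtypes), 2 held a library far from the other 5, and chance flags about 1 group in 20. Calb1 was at 237 CPM in SST replicate 3, against 366 to 436 in the other SST libraries. This library also had the highest striatal marker sum (2493 CPM) and the fewest reads of SST (5508099), and their part in the value was not tested. SST replicate 1, with a striatal marker sum of 2312 CPM, was at 366 for Calb1. Hpcal1 was at 3.17 CPM in EXC replicate 3, from 15 reads, against 7.8 to 10 in the other EXC libraries. That library also had the lowest excitatory marker sum of EXC (2033 CPM), and it is the only EXC library in POOL7099.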

How the results depend on the processing

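Of the 60 differences between subtypes, 31 kept their direction and their side of the threshold under every one of the 36 alternatives that gave a value, and 29 of the 46 calls were never lost. DESeq2 lost no call, nor did leaving out the mitochondrially encoded genes or upper-quartile scaling. The pool as a covariate changed most. PV is linked to SST and VIP there only through EXC, and EXC to VIP only through EXC replicate 3, by construction. It took the genes called from 5821 to 3714 in VIP against EXC and from 7242 to 2341 in PV against VIP, and reversed Necab3 in SST minus EXC (1.26), VIP minus EXC (1.07) and SST minus VIP (0.18), Hpca in SST minus EXC (1.37) and PV minus VIP (-0.86), Ncald in SST minus EXC (0.35), VIP minus EXC (0.61) and PV minus SST (-1.20, adjusted p = 0.0138), Vsnl1 in SST minus VIP (0.14) and Necab2 in SST minus VIP (0.49). It also reversed Calm3 in PV minus VIP (-0.07), S100b in PV minus SST (-4.52), S100a6 in SST minus EXC (-3.60), Thy1 (0.32) and Susd4 (0.18) in SST minus EXC. Pvalb in PV minus SST (4.86, adjusted p = 0.127), SST minus EXC (2.38, 0.243) and VIP minus EXC (-1.84, 0.219), and Calb1 in SST minus EXC (1.19, 0.179) and PV minus SST (-1.54, 0.126), kept their direction but not the call. Tesc, Cabp1, Nucb2 and Phyhip (VIP minus EXC -0.93, 0.136) also lost theirs. Within POOL7098, with VIP replicates 1 and 3 only, SST minus VIP turned for Necab2 (0.46), Necab3 (0.24) and Vsnl1 (0.25), none of which passed in any fit. Necab2 also turned with no sex term (0.15) and ran from -0.38 to 0.06 when 1 library was left out. DESeq2's likelihood ratio test called 1 gene for subtype by sex, against 0. Leaving out each library in turn gave 6208 to 7061 genes in PV against EXC, 5047 to 5947 in SST against EXC, 5102 to 7291 in VIP against EXC, 3400 to 4748 in PV against SST, 6447 to 7896 in PV against VIP, 3550 to 5484 in SST against VIP and 6 to 7 for sex. No paired analysis was possible because the replicate numbers follow the order of deposition and only name libraries. Members with few reads, such as Calb2 in PV (5 reads), Pvalb in VIP (14), Necab2 and Hpcal1, are limited by depth.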
